A study of Homo sapiens with 8 samples.

Results

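The *MYC* locus on chromosome 8 was examined enhancer by enhancer in 4 medulloblastoma (MB) cell lines, from 127000000 to 129100000 of GRCh38, a window of 2.1 Mb that holds *MYC*, *PVT1*, *CASC8*, *CCAT2* and *CASC11*. Every enhancer overlapping the window was taken, which gave 99 of the 88550 enhancers of the 4 lines: MB002 had 27 of its 26072, D425 25 of 26317, HD-MB03 18 of 15286 and UW228 29 of 20875. The window was chosen by measured values of these same libraries, namely the high ranks and the high input of its enhancers, so everything below is a description and no test was made. MB002, D425 and HD-MB03 are established Group 3 MB (G3-MB) lines and UW228 is labelled as a line of the SHH subtype. No treatment is named for any line. Each line has 1 chromatin immunoprecipitation library for H3K27Ac and 1 input library, that is, DNA sequenced without the antibody step. There are no replicates, so no value carries an error, and the number of reads behind each library is unknown. The UW228 table carries another date in its header than the G3-MB tables, and this difference and the subtype cannot be told apart.

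H3K27Ac, the acetylation of a lysine of histone H3, marks active enhancers and promoters. Super-enhancers (SEs) are stretches in which many such peaks lie close together with a very high summed signal, and they are often found near genes that set cell identity or drive a tumor, while all other enhancers are called typical enhancers (TEs). *MYC* encodes a transcription factor that drives growth and proliferation and is a known oncogene of G3-MB. It lies in a gene desert that carries distant enhancers and several long noncoding RNAs (lncRNAs): *CASC8*, *CCAT2*, *CASC19*, *PRNCR1* and *PCAT1* upstream, *CASC11* next to *MYC* on the opposite strand, and *PVT1* downstream. *PVT1* is often gained together with *MYC* in cancer, and *CCAT2* is transcribed from a stretch known for inherited risk of colorectal cancer.

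For each enhancer the H3K27Ac signal and the input signal are coverage in rpm/bp, which is scaled to the number of mapped reads of the library, multiplied by the length of the enhancer in bp. The difference is H3K27Ac minus input, set to 0 where input was higher, and enhancers are ranked by it within a line, with rank 1 the highest. The ratio is H3K27Ac over input, in which the length cancels. The relative input density is the input per bp over the median input per bp of that line's enhancers, and an enhancer is called of high input at a value of at least 5. Per the file headers, peaks that lie within 12 kb of each other were stitched into 1 enhancer, and the gaps between them count in its length and signal.

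The 3 G3-MB lines carried very high H3K27Ac and very high input together over *CASC8* and the desert behind it, as did MB002 and D425 at *MYC*. The UW228 enhancers over *CASC8* and at *MYC* carried neither. In the desert between these genes UW228 had no listed enhancer, so its signal there is not known. Among the window's enhancers MB002 had 6 that were deposited as SEs, D425 5, HD-MB03 2 and UW228 2, against 1.39%, 1.64%, 1.98% and 3.61% of all enhancers of these lines. High input was found in 9, 11, 5 and 0 of them, against 0.184%, 0.0684%, 0.373% and 0.00479% of all enhancers, respectively. Input at or above H3K27Ac occurred in 1, 1, 2 and 0 of them, where 0.192%, 0.163%, 0.0654% and 0.024% of all enhancers had it. These shares stand beside counts that the choice of the window used, so nothing is read from them. All 13 SEs of the G3-MB lines in the window were of high input, and both SEs of UW228, which lie in *PVT1*, were not. The share of high input over all SEs of a line is not given here. High ranks and high input were both used to choose the window, so nothing is read from this count either.

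**Figure D1:**
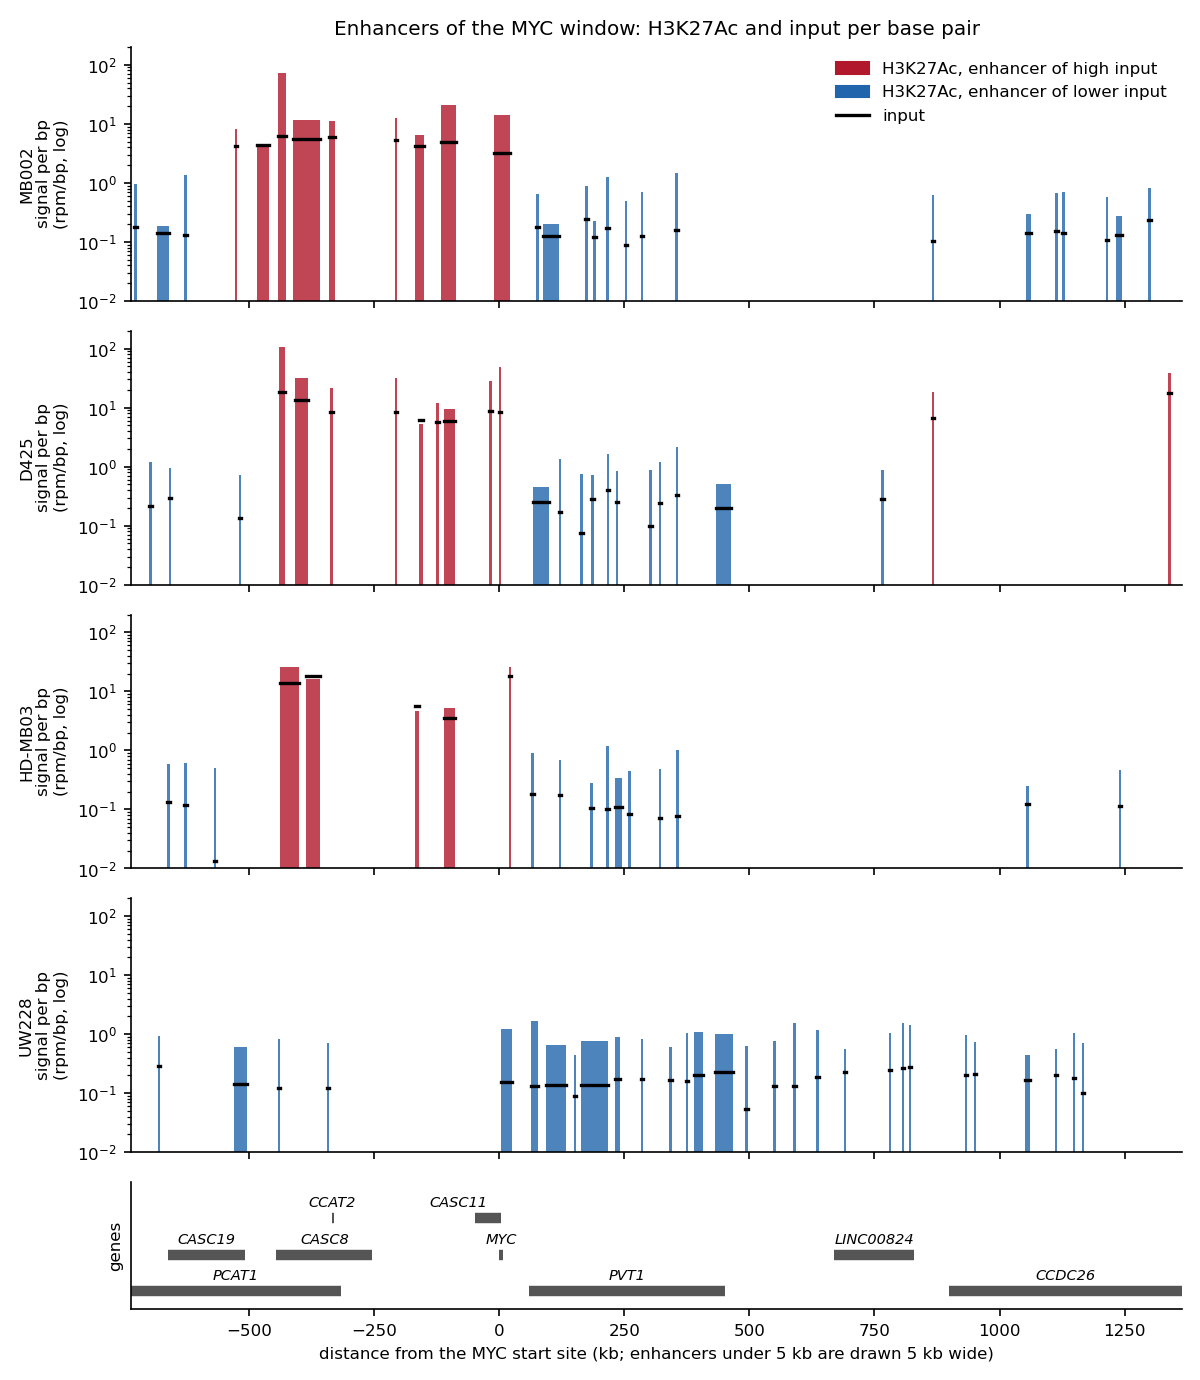
H3K27Ac per bp (bars) and input per bp (black lines) of each enhancer in the window, on a log axis, against distance from the *MYC* start site in kb, with the genes at the bottom; red bars are enhancers of high input and blue bars all others. The red bars of MB002, D425 and HD-MB03 lie upstream of and around *MYC*, except for 2 far downstream in D425, and UW228 has none.

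The strongest enhancers of the window lay over *CASC8* and were ranked at the top of each G3-MB line. In MB002 the enhancer from 127294168 to 127308750, in the 3' part of *CASC8*, had H3K27Ac signal 1038288, input 91533, difference 946755 and ratio 11.3 over 14582 bp. It held rank 2 of the line and ended 426.7 kb upstream of the *MYC* start site. The neighbouring MB002 enhancer from 127322878 to 127377707, which also covers exons of *POU5F1B*, a retrogene of the pluripotency factor gene *POU5F1*, had H3K27Ac signal 647300, input 304328, difference 342972 and ratio 2.13 over 54829 bp, at rank 12. Thus the first had the larger difference and the higher ratio on the shorter length. In D425 the enhancer at the same place, from 127295923 to 127306750, had H3K27Ac signal 1140553, input 196064, difference 944489 and ratio 5.82 over 10827 bp, at rank 1. The one over *POU5F1B*, from 127328012 to 127354280, had H3K27Ac signal 846137, input 349236, difference 496901 and ratio 2.42 over 26268 bp, at rank 2. D425 therefore had ranks 1 and 2 of its whole table in this stretch. The MB002 enhancer at rank 2 and the D425 enhancer at rank 1 also lie in *PCAT1*. Both overlapped exon sequence of *PCAT1* and none of *CASC8*. In HD-MB03 the enhancer from 127297616 to 127335598 joined both places and had H3K27Ac signal 972784, input 529378, difference 443406 and ratio 1.84 over 37982 bp, at rank 1. The HD-MB03 enhancer next to it, from 127348786 to 127377748, had H3K27Ac signal 461927, input 523723, difference 0 and ratio 0.882 over 28962 bp. Its input exceeded its H3K27Ac, so it was among the 10 HD-MB03 enhancers tied at a difference of 0, the last of which is listed at rank 15286. The top enhancer of HD-MB03 and one with no difference were thus neighbours within *CASC8*, at relative input densities of 118 and 154. In UW228 the only enhancer overlapping these, from 127292740 to 127298052, had H3K27Ac signal 4479.6, input 642, difference 3837 and ratio 6.98 over 5312 bp, at rank 6585 and a relative input density of 0.785.

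*CCAT2* was covered by an enhancer in MB002 only. This SE from 127395702 to 127406870 had H3K27Ac signal 126997, input 65648, difference 61349 and ratio 1.93 over 11168 bp, at rank 96. The nearest D425 enhancer, 2.5 kb from the *CCAT2* start site, was a TE of 1 peak from 127397388 to 127397889 with H3K27Ac signal 10890.5, input 4142, difference 6749 and ratio 2.63 over 501 bp, at rank 2874. In UW228 the nearest lay 9 kb away, at rank 17917, and in HD-MB03 22.7 kb away, which was the enhancer with a difference of 0 described above. Both the MB002 and the D425 enhancer were of high input, at relative densities of 43.5 and 62.2, and the UW228 enhancer was not, at 0.794.

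Further upstream, the lncRNA *CASC19* had a listed enhancer of high input in MB002 only. HD-MB03 had no listed enhancer between 127165246 and 127297616, so its input near the *CASC19* start site is not known. The MB002 enhancer from 127206574 to 127210737 had H3K27Ac signal 33807, input 17835, difference 15972 and ratio 1.896 over 4163 bp, at rank 1153, and the one from 127251973 to 127275262, between *CASC19* and *CASC8*, had H3K27Ac signal 92714, input 101649, difference 0 and ratio 0.912 over 23289 bp. The second is the one member of MB002 with input above H3K27Ac, at rank 26071. Beside the first, D425 had, without overlap, a TE of 353 bp with a difference of 209 and a ratio of 5.45, and UW228 had one of 26455 bp that covers both, with a difference of 12561 and a ratio of 4.35, which was its highest-ranked enhancer upstream of *MYC*, at 2067. No enhancer overlapped *PRNCR1* in any line. The enhancer nearest to its start site lay 4.8 kb away for MB002, 3.3 kb for D425, 4.2 kb for HD-MB03 and 26.5 kb for UW228, in a stretch that had an enhancer in all 4 lines, with ratios of 1.35, 3.29, 4.39 and 3.21 and differences of 1114, 1308, 1459.7 and 323. These sit outside the stretch of high input, and their differences lie between 323 and 1459.7. Further towards *MYC*, the HD-MB03 enhancer from 127164984 to 127165246 had the highest ratio of the window, 36.7, which rests on an H3K27Ac signal of 131 over 262 bp and an input of 3.56.

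Between *CASC8* and *CASC11* lies none of the genes named here. All 3 G3-MB lines had enhancers at the shared places described next, and UW228 had none listed there. The largest was an SE in all 3 lines. In MB002 it ran from 127619244 to 127648227 with H3K27Ac signal 597256, input 141773, difference 455482 and ratio 4.21 over 28983 bp, at rank 6. In D425 it ran from 127624977 to 127647501 with H3K27Ac signal 216003, input 135763, difference 80239.5 and ratio 1.59 over 22524 bp, at rank 33. In HD-MB03 it ran from 127624736 to 127647060 with H3K27Ac signal 114839, input 80333, difference 34506 and ratio 1.43 over 22324 bp, at rank 141. Lengths and positions of this SE were close in the 3 lines, whereas its ratio in MB002 was well above those of the others. Peaks made up 61.4% of its length for MB002, 29.0% for D425 and 26.8% for HD-MB03. A second shared place lay further upstream. The MB002 enhancer from 127566795 to 127584761 was an SE with H3K27Ac signal 114291, input 76338, difference 37953 and ratio 1.50 over 17966 bp, at rank 279. The overlapping D425 enhancer from 127574850 to 127584119 had H3K27Ac signal 48301, input 57151, difference 0 and ratio 0.845 over 9269 bp, at rank 26285, and that of HD-MB03 from 127567397 to 127575129 had H3K27Ac signal 35583, input 43907, difference 0 and ratio 0.810 over 7732 bp, at rank 15278. Here the call depended on the line, from an SE in MB002 to the end of the table in D425 and HD-MB03, and the HD-MB03 ratio was the lowest of all its enhancers. Peaks covered 27.1%, 8.28% and 8.15% of these 3 enhancers, so most of each was gap between peaks.

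Single peaks of high input filled the rest of this stretch. A peak at the same position in MB002, from 127526296 to 127526801, and D425, from 127526294 to 127526787, had H3K27Ac signal 6308, input 2637, difference 3671 and ratio 2.39 over 505 bp in the first and H3K27Ac signal 15508, input 4119, difference 11389 and ratio 3.77 over 493 bp in the second, at ranks 5538 and 1570. D425 alone had a peak from 127609930 to 127610527, with H3K27Ac signal 7029, input 3355, difference 3674 and ratio 2.10 over 597 bp, at rank 5003. All were TEs, with lengths of 493 to 597 bp.

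At *MYC* itself, MB002 and D425 had SEs over the start site, UW228 had a TE that begins within the gene, and HD-MB03 had no enhancer on the gene. The MB002 SE from 127725960 to 127757420 stitched 5 peaks and had H3K27Ac signal 441868, input 101050, difference 340819 and ratio 4.37 over 31460 bp, at rank 14. The D425 SE from 127734279 to 127738904 was 1 peak with H3K27Ac signal 223864, input 38519, difference 185345 and ratio 5.81 over 4625 bp, at rank 7. In both lines it overlapped *MYC* coding sequence and exons of *CASC11*, whose start site lies 3.6 kb from that of *MYC*. D425 had another enhancer over *CASC11*, from 127715249 to 127716553, with H3K27Ac signal 37129, input 11247, difference 25882 and ratio 3.30 over 1304 bp, at rank 442. The UW228 TE from 127738935 to 127761377, 3.5 kb past the *MYC* start site, had H3K27Ac signal 27817, input 3447, difference 24369.8 and ratio 8.07 over 22442 bp, at rank 763. This difference lay just below the deposited SE cutoff of the line, 24466.8, which gave UW228 753 SEs. The split between SE and TE at *MYC* is thus a narrow one in UW228. The ratio of this UW228 TE was the highest among the lines with an enhancer on *MYC*, with a difference far below those of MB002 and D425. The SEs of MB002 and D425 reach over the start site and the UW228 TE does not, so these values cover unlike stretches. The nearest HD-MB03 enhancer, from 127754247 to 127754704, lay 18.8 kb past the start site and had H3K27Ac signal 11888, input 8249.8, difference 3638 and ratio 1.44 over 457 bp, at rank 3111. Per bp its H3K27Ac was 26.0 rpm/bp and its input 18.1 rpm/bp, against 1.24 and 0.154 rpm/bp in the UW228 enhancer. The tables list regions distal to start sites per the file headers, so a start site without an enhancer is not shown to lack H3K27Ac, although in MB002 and D425 the listed enhancers did reach over it.

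Over *PVT1* the order was another, with UW228 the highest in the summed difference and in the difference per bp. MB002 had 8 enhancers overlapping *PVT1*, D425 10, HD-MB03 8 and UW228 10, and of these 0, 0, 0 and 2 were SEs. Their summed difference was 16435 over 49.5 kb for MB002, 27855 over 71.9 kb for D425, 12835 over 25.7 kb for HD-MB03 and 127501 over 175 kb for UW228. UW228 was thus 7.76-fold above MB002, 4.58-fold above D425 and 9.93-fold above HD-MB03 in the sum, and 2.196-fold, 1.88-fold and 1.46-fold in the difference per bp. The lines thus differed more in called length than in the difference per bp. In the ratio of summed H3K27Ac to summed input over *PVT1*, HD-MB03 was the highest, with 5.60. UW228 had 5.40, MB002 3.48 and D425 2.65. None of the *PVT1* enhancers was of high input. The highest relative input density among them was 1.81 for MB002, 2.99 for D425, 1.53 for HD-MB03 and 1.49 for UW228.

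The first SE of UW228 in *PVT1*, from 127898585 to 127952455, had H3K27Ac signal 41269.8, input 7472, difference 33798 and ratio 5.52 over 53870 bp, at rank 430, the best of the window in this line. The second, from 128167531 to 128202502 across the 3' end of *PVT1*, had H3K27Ac signal 34621, input 8043, difference 26578 and ratio 4.30 over 34971 bp, at rank 659. The UW228 enhancer nearest to the *PVT1* start site, from 127799215 to 127813450, had H3K27Ac signal 23374, input 1885, difference 21489 and ratio 12.4 over 14235 bp, at rank 946. That ratio was the highest of UW228 in the window and exceeded that of 91.8% of the enhancers of the line. An enhancer of D425 covered nearly the same ground as the second SE, from 128167814 to 128199540, with H3K27Ac signal 16222, input 6250.0, difference 9971 and ratio 2.60 over 31726 bp. Among the D425 enhancers of the window that were not of high input it was the best ranked, at 1847. Within the first SE all G3-MB lines had a short enhancer, and these began 213.6 to 214.4 kb past the *MYC* start site. MB002 had H3K27Ac signal 4151, input 569, difference 3582 and ratio 7.30 over 3320 bp. D425 had H3K27Ac signal 3886, input 958, difference 2928 and ratio 4.06 over 2414 bp. HD-MB03 had H3K27Ac signal 3322, input 288, difference 3034 and ratio 11.5 over 2802 bp. These 3 had differences close to each other.

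One *PVT1* enhancer was called in the 3 G3-MB lines and not in UW228. In MB002, from 128086067 to 128092450, it had H3K27Ac signal 9491, input 1016, difference 8475 and ratio 9.35 over 6383 bp. In D425, from 128088218 to 128092101, it had H3K27Ac signal 8205, input 1270.1, difference 6935 and ratio 6.46 over 3883 bp. In HD-MB03, from 128088899 to 128093943, it had H3K27Ac signal 5159.5, input 396, difference 4764 and ratio 13.0 over 5044 bp. It overlapped a *PVT1* exon in each line and held ranks 2642, 2792 and 2554, the best ranks in MB002 and HD-MB03 among the window's enhancers that were not of high input. Its relative input densities of 1.18, 2.46 and 0.667 were far below the threshold of high input. In UW228 the nearest calls on either side were TEs from 128075307 to 128079257, with H3K27Ac signal 2400.0, input 649, difference 1751 and ratio 3.70 over 3950 bp, and from 128107749 to 128109583, with H3K27Ac signal 1941, input 299, difference 1642 and ratio 6.50 over 1834 bp. The microRNA genes *MIR1204*, *MIR1205*, *MIR1206*, *MIR1207* and *MIR1208* lie within *PVT1*, and no enhancer overlapped any of them in any line.

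Beyond *PVT1* the window was sparse in the G3-MB lines. *LINC00824* was overlapped by 4 enhancers in UW228, by 1 in D425 and by none in MB002 or HD-MB03. In *CCDC26*, a long lncRNA gene that runs past the window's end, a place from 128787196 to 128795533 in UW228 was also called in MB002 and HD-MB03, with ratios of 2.64, 2.02 and 2.03 and differences of 2341, 1649 and 970.2. D425 had 2 further enhancers of high input here. The first, from 128600291 to 128602055, had H3K27Ac signal 32579, input 11793, difference 20785 and ratio 2.76 over 1764 bp, at rank 649. The second, from 129072886 to 129075123 in an intron of *CCDC26*, was an SE with H3K27Ac signal 85716, input 39842, difference 45874 and ratio 2.15 over 2237 bp, at rank 140. No D425 enhancer was listed in the 470.8 kb between them, so the input there is not known. MB002 had an enhancer overlapping the first, with a difference of 214 and a relative input density of 0.777, against 50.3 in D425. The last D425 enhancer before these 2, which ends at 128499937, had a relative input density of 2.17, and the next after them had 3.25.

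In all 3 lines the enhancers on either side of a border of high input differed greatly in relative input density. How this density changed in the gap between them is not shown. In MB002 the run of 9 enhancers of high input extended from 127206574 to 127757420, or 550.8 kb, at relative densities of 23.8 to 46.4. The enhancer before it, which ends at 127107017, had 0.951, and the one after it, which starts at 127809938, had 1.31. In D425 a run of 9 extended from 127295923 to 127738904, or 443 kb, at 42.3 to 136, between enhancers at 1.00 and 1.92. In HD-MB03 a run of 5 extended from 127297616 to 127754704, or 457.1 kb, at 30.6 to 154, between enhancers at 0.116 and 1.53. A run is a row of consecutive listed enhancers of high input, so by definition none of lower input is listed within it. No enhancer of the window lay near the threshold: the highest value below it and the lowest above it were 1.81 and 23.8 for MB002, 2.99 and 42.3 for D425, and 1.53 and 30.6 for HD-MB03. UW228 reached at most 1.85.

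The 3 downstream borders can share a place and the 3 upstream borders cannot. Downstream, each line went from high to lower input between 2 enhancers, and the stretch from 127757420 to 127799966, 42.5 kb long, was common to the 3 gaps. It starts 22 kb past the *MYC* start site and contains the *PVT1* start site at 127794526. Upstream, MB002 was high from 127206574, while D425 was still at 1.00 in its enhancer from 127214827 to 127215180, so the MB002 border lies further from *MYC*. The upstream border of MB002 falls in the 99.6 kb before 127206574, that of D425 in the 80.7 kb before 127295923 and that of HD-MB03 in the 132.4 kb before 127297616. The HD-MB03 stretch overlaps both of the others, so this border could lie at either. The span of high input common to the 3 lines, from 127297616 to 127738904, was 441.3 kb long. It holds *CCAT2*, *POU5F1B*, the 3' part of *PCAT1*, most of *CASC8* and *CASC11* and the *MYC* start site, but not *PVT1*. Positions are known only to the nearest enhancer.

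**Figure D2:**
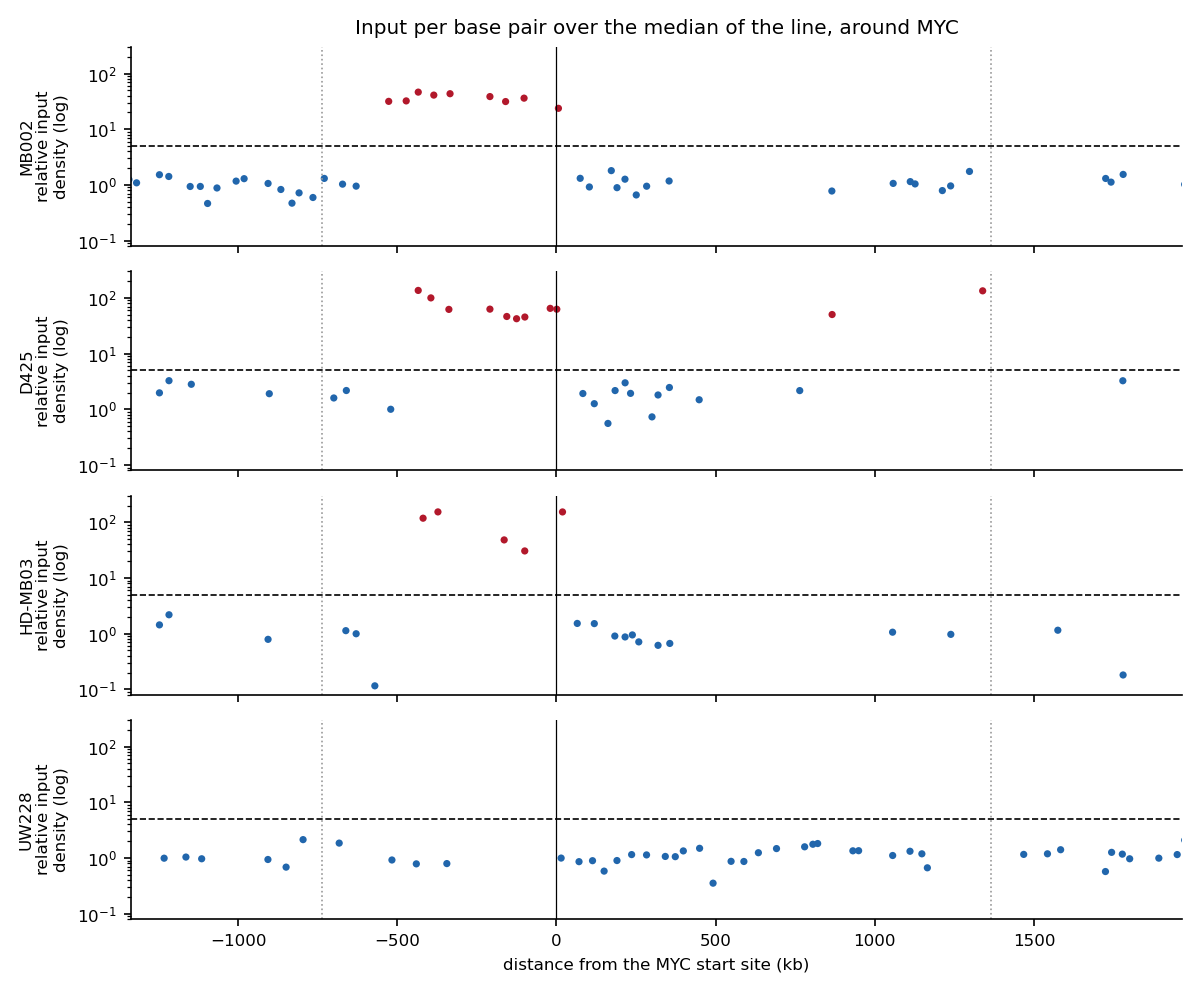
Relative input density of each enhancer (log axis) against distance from the *MYC* start site in kb, in and beside the window, whose ends are dotted; the dashed line is the threshold of 5, and enhancers with an input of 0 are not drawn. The red points of MB002, D425 and HD-MB03 in the window stand at 23.8 or more and the blue ones at 2.99 or less, and all UW228 points lie below the threshold.

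Within the runs, the input was not level. It varied 1.95-fold between the lowest and the highest enhancer of the MB002 run, 3.22-fold in that of D425 and 5.03-fold in that of HD-MB03. D425 was highest over *CASC8*, at 136 and 100.1, but had 62.2 at the short enhancer from 127397388 there and 62.9 at the desert peak from 127526294. It fell to between 42.3 and 46.4 at the 3 enhancers 151.3 to 87.9 kb upstream of *MYC*, and stood at 64.9 and 62.7 at *CASC11* and *MYC*. HD-MB03 had 118 and 154 over *CASC8*, 48.2 and 30.6 at the 2 enhancers 160.3 and 88.4 kb upstream of *MYC*, and 153 past it. Both lines thus had less input at the desert enhancers 160.3 to 87.9 kb upstream of *MYC* than at *CASC8* or beside *MYC*. MB002 had its highest value, 46.4, over *CASC8* as well, 36.2 at the desert SE and its lowest, 23.8, at *MYC*. The start of the window crossed no border of high input: the last enhancer before it had 0.595 for MB002, 1.91 for D425, 0.790 for HD-MB03 and 2.14 for UW228, and the first inside had 1.31, 1.596, 1.13 and 1.85. In D425 the last enhancer inside the window had 134 and the first beyond it, which starts at 129513915, had 3.25. Elsewhere on chromosome 8, HD-MB03 had 30 enhancers of high input, D425 had 1, and MB002 and UW228 had 0. The median over the chromosome 8 enhancers outside the window was highest in D425, at 1.37, against 0.960 in MB002, 0.982 in HD-MB03 and 0.981 in UW228.

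The ratio of H3K27Ac to input was low over these enhancers. The median ratio in the window was 3.60 for MB002, 3.30 for D425 and 3.93 for HD-MB03, below the medians over all enhancers of 5.10, 4.96 and 5.65, whereas UW228 had 5.18 against 5.41. Among enhancers of high input the median was 2.13 for MB002, 2.63 for D425 and 1.43 for HD-MB03, with ranges of 0.912 to 11.3, 0.845 to 5.82 and 0.810 to 1.84. The other enhancers of the window had medians of 4.61, 4.48 and 5.11 in these lines. So 22 of the 25 enhancers of high input lay below the median ratio of their line. The exceptions were the strongest enhancer of MB002 over *CASC8* and, in D425, the one at the same place and that at *MYC*. All SEs of a line had a median ratio of 7.12 for MB002, 6.42 for D425 and 9.98 for HD-MB03, and only 3 SEs of HD-MB03 had a lower ratio than its enhancer at rank 1. Input also enters the relative input density, so that a low ratio at high input is in part built in.

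**Figure D3:**
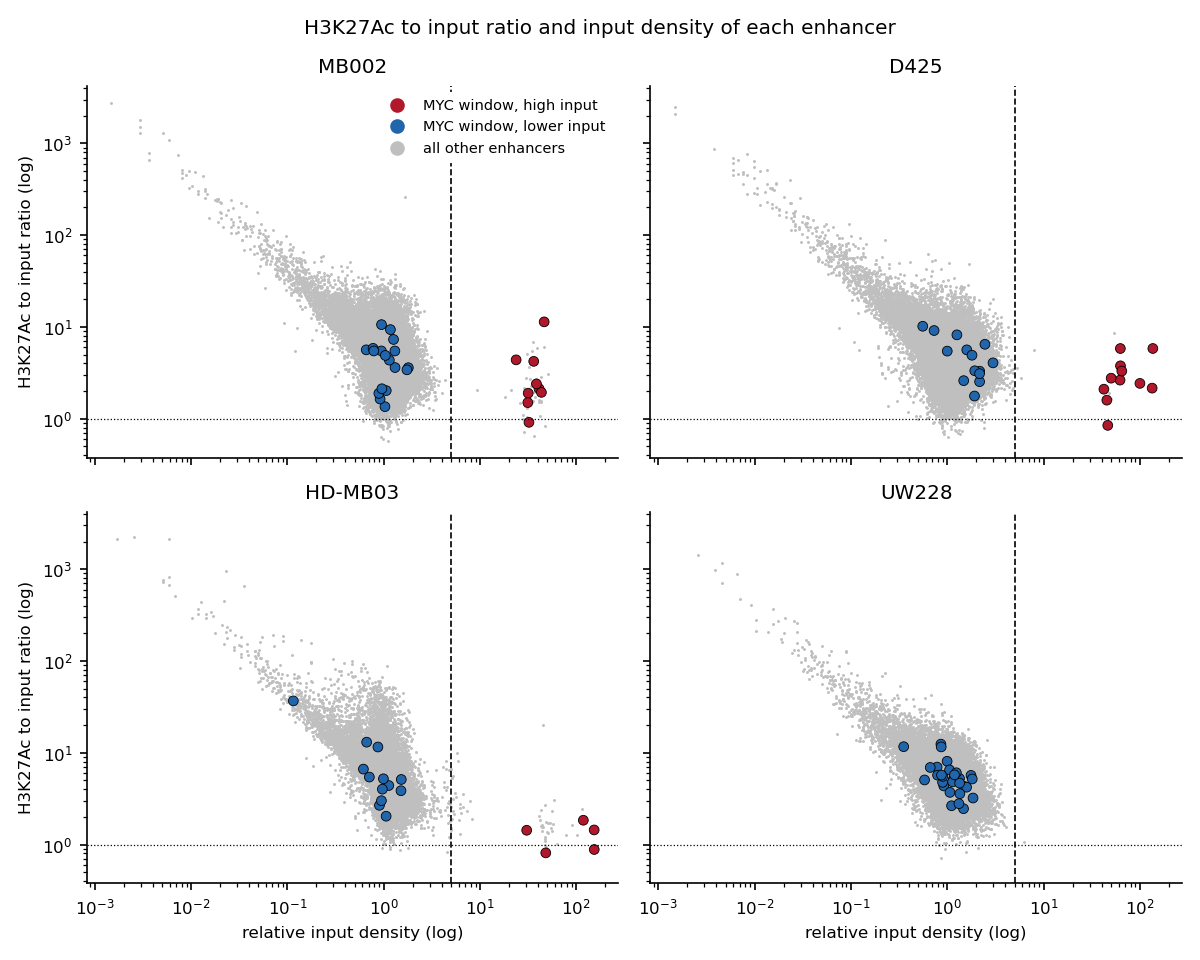
Ratio of H3K27Ac to input against relative input density of each enhancer, both on log axes, with 1 panel per line; red and blue points are enhancers of the *MYC* window of high and lower input, grey points are all other enhancers, and enhancers with an input of 0 are not drawn. Red points have ratios between 0.810 and 11.3, and the blue points lie among the grey ones.

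With each difference divided by the relative input density of its own enhancer, the MB002 enhancer over *CASC8* moved from rank 2 to 705 and its *MYC* SE from 14 to 1226. In D425 the top enhancer moved from 1 to 2657, and in HD-MB03 from 1 to 3224. The desert SE moved to 1487, 8597 and 7113 in MB002, D425 and HD-MB03. In HD-MB03 the *PVT1* enhancer shared by the G3-MB lines then came before every enhancer of high input in the window, at 1783. In UW228 the first *PVT1* SE went from 430 to 401, the second from 659 to 1412, the *PVT1* enhancer from 128125313 to 128142472 from rank 1595 to 2613 and the *MYC* TE from 763 to 848. The divisor was 23.8 to 154 for the enhancers of high input by the way they were picked, and its median over the enhancers of a line is 1 by definition, so their drop in rank is built in and nothing is read from it. The division also assumes that H3K27Ac scales with input, which was not tested.

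**Figure D4:**
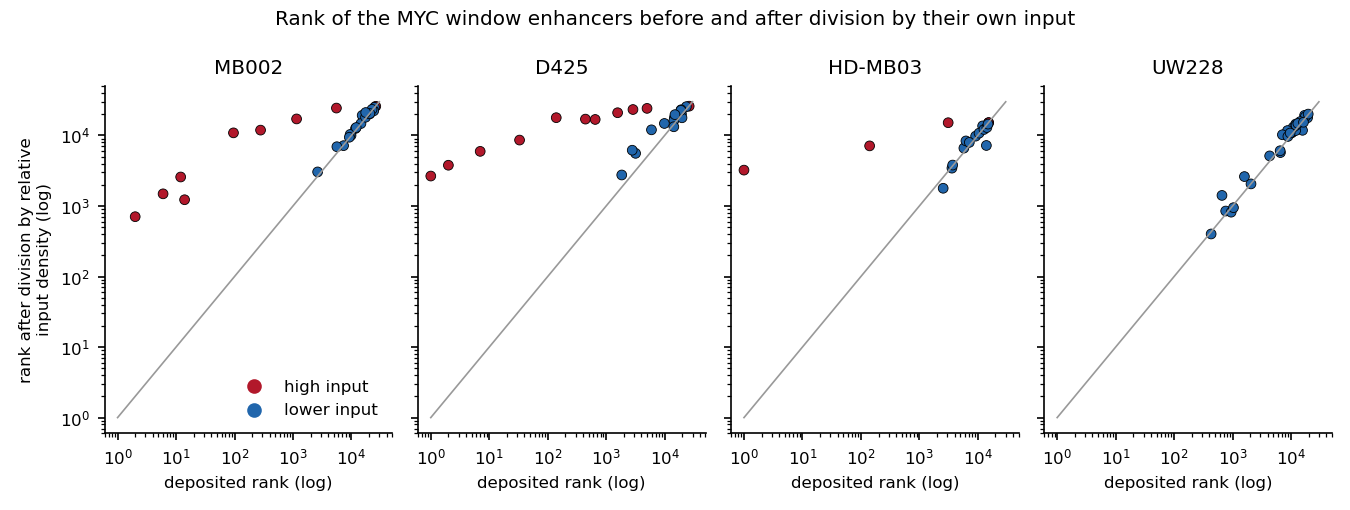
Rank of each window enhancer after division of its difference by its relative input density against its deposited rank, both on log axes, with 1 panel per line; red points are of high input, blue points are not, and the grey line marks equal ranks. The red points with a difference above 0 lie above the line, as with the MB002 enhancer that goes from rank 2 to 705, and the blue points lie nearer to it.

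Summed over the window, the difference was 2230018 over 288.1 kb of enhancers for MB002, 1851733 over 156 kb for D425, 497579 over 135.6 kb for HD-MB03 and 190642 over 262.3 kb for UW228. This was 7.74, 11.9, 3.67 and 0.727 rpm/bp, respectively. MB002 was 11.7-fold, D425 9.71-fold and HD-MB03 2.61-fold above UW228 in the sum, and 10.7-fold, 16.3-fold and 5.05-fold per bp. Without subtraction of input, the folds in the sum were 13.4, 11.6 and 6.91. With each difference divided by its relative input density, which was chosen after seeing the data, they were 0.440, 0.189 and 0.131, so UW228 was then the highest, under the same built-in drop and the same untested assumption as for the ranks. In the ratio of summed H3K27Ac to summed input UW228 was the highest, with 5.41 against 3.42 for MB002, 3.12 for D425 and 1.36 for HD-MB03. The window held 2.35%, 2.32% and 1.02% of the difference of all enhancers in MB002, D425 and HD-MB03 on 0.181%, 0.0994% and 0.162% of their length, and 0.182% on 0.176% in UW228. Enhancers of high input made up 98.9%, 98.4% and 96.8% of the window's difference in the G3-MB lines.

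The lines also differed in where the difference lay. Enhancers upstream of *MYC* held 83.7% of it for MB002, 84.9% for D425, 96.5% for HD-MB03 and 8.90% for UW228. Those overlapping *MYC* held 15.3%, 10.0%, 0% and 12.8%, and those downstream 0.980%, 5.13%, 3.52% and 78.3%. The downstream sums were 21844 over 76.5 kb for MB002, 95019 over 76.7 kb for D425, 17534 over 34 kb for HD-MB03 and 149296 over 207.2 kb for UW228, or 0.286, 1.24, 0.516 and 0.721 rpm/bp, so UW228 was the highest in the sum and D425 per bp. With the enhancers of high input left out, the downstream sums were 21844 over 76.5 kb for MB002, 28359 over 72.7 kb for D425 and 13895 over 33.5 kb for HD-MB03, against 149296 over 207.2 kb for UW228, or 0.286, 0.390, 0.415 and 0.721 rpm/bp.

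**Figure D5:**
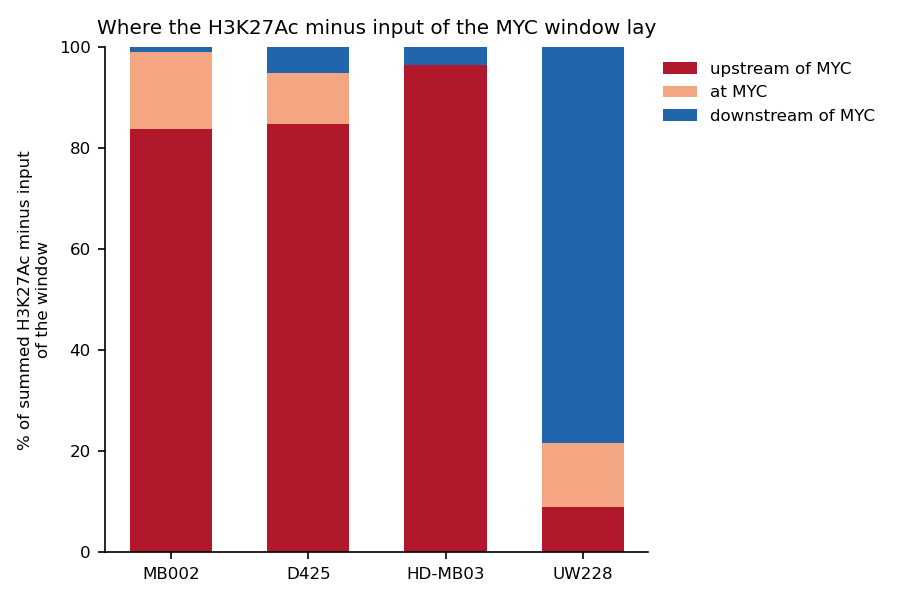
Percent of the window's summed H3K27Ac minus input in enhancers upstream of, overlapping and downstream of *MYC*, in each line. The upstream share is 83.7% or more in the G3-MB lines and 8.90% in UW228, where 78.3% lies downstream.

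Overlapping enhancers of the 4 lines formed 53 places, of which 34 had an enhancer in 1 line, 8 in 2, 6 in 3 and 5 in all 4. Over all enhancers of the 4 lines, 67.8% of the places were of 1 line, 16.7% of 2, 10.2% of 3 and 5.30% of 4, against 64.2% of 1 line in the window. Of the 34 places with 1 line, MB002 had 7, D425 had 7, HD-MB03 had 2 and UW228 had 18, where 28.4%, 28.7%, 10.5% and 32.4% of all places with 1 line were theirs. A place is a chain of overlapping enhancers, so those of D425 and UW228 at *MYC* and beside *PRNCR1* are in the same place without overlapping each other. Exactly the 3 G3-MB lines shared 3 places: both desert enhancers and the *PVT1* enhancer described above. The share of all places that are of exactly these lines is not given here, so nothing is read from this count. The places in all 4 lines were the one beside *PRNCR1*, that of *CASC8*, the one reaching over *MYC* and 2 in *PVT1*. Of the HD-MB03 enhancers, 12 of 18 overlapped one of MB002 and 11 one of D425, where 61.2% and 51.2% of all enhancers of the line did. Of the MB002 enhancers, 13 of 27 overlapped one of D425 and 12 one of HD-MB03, against 45% and 35.2%, and of the D425 enhancers 13 of 25 overlapped one of MB002 and 11 one of HD-MB03, against 45.4% and 29.9%. Of the UW228 enhancers, 9 of 29 overlapped one of MB002, 7 one of D425 and 7 one of HD-MB03, against 24.7%, 30% and 18.7%. In the other direction, 11 of the 27 MB002 enhancers, 8 of the 25 of D425 and 8 of the 18 of HD-MB03 overlapped one of UW228, against 20.3%, 24.4% and 26.2%.

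The coding genes that flank the window had no enhancers of high input. *TRIB1*, which encodes a pseudokinase, was overlapped by an SE in HD-MB03 only, at rank 187 with a ratio of 38.6 and a relative input density of 1.04, and no enhancer overlapped it in the other lines. *LRATD2* was overlapped by none in any line, and *GSDMC*, of the gasdermin family, by 1 in UW228 only. *ASAP1*, which encodes a GTPase-activating protein, was overlapped by 6 enhancers of MB002, 5 of D425, 4 of HD-MB03 and 9 of UW228, with differences summing to 9246 over 34.1 kb, 7742 over 18.1 kb, 3203 over 3.3 kb and 86308 over 161.1 kb. UW228 thus had the highest sum at *ASAP1*, while per bp the difference was highest in HD-MB03, at 0.984 rpm/bp against 0.271 for MB002, 0.427 for D425 and 0.536 for UW228.

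Genes on other chromosomes were compared with *MYC* by the difference summed over enhancers within 50 kb of the start site, as log2 of the sum plus 100, centred over the 4 lines. For *MYC* the sums were 340819 for MB002, 211226 for D425, 3638 for HD-MB03 and 24370 for UW228. Of 37141 genes, those at the smallest Euclidean distance were *TBC1D1* at 0.212, ENSG00000255928 at 0.303, *TFG* at 0.323, ENSG00000286598 at 0.387 and *LYZL2* at 0.429. Their sums were far smaller, with 9081, 4646, 0 and 505 for *TBC1D1* in the order above. The 5 were picked for order and spacing of the lines like those of *MYC*, over 4 values. All 5 had a sum of 0 in HD-MB03, so their value there is set by the added 100.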

How the data were processed

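Each of the 4 lines has 1 H3K27Ac and 1 input library and 1 enhancer table, which was analysed here. Per the study's methods, reads were aligned to GRCh38 with Bowtie 2 (2.3.0), processed with SAMtools (1.9), filtered for multi-mapped and duplicate reads, and peaks were called over input with MACS2 (2.2.6). Peaks were stitched and ranked with ROSE, at 12 kb per the file headers and at a slightly longer distance per the methods. The deposited signal values of H3K27Ac and input are coverage in rpm/bp multiplied by the length (end minus start), with input not subtracted. The deposited rank, a score, follows H3K27Ac minus input, and this order was checked for every enhancer. The SE calls, the number of stitched peaks and their summed length were used as the authors gave them. Library depth is not given in the sources used here, so no interval was computed.

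From these values the difference, ratio (enhancers with an input of 0 left out), relative input density, runs of high input, overlaps between lines (at least 1 bp) and overlaps with GENCODE 44 genes were computed in Python 3.11.15 (pandas 2.3.3, numpy 2.4.6, matplotlib 3.10.9), by scripts tested on simulated data. A side of *MYC* was assigned by the annotated gene body. Named were the 5 genes of the locus, listed neighbours found in the annotation (15 of 18), the 3 highest-ranked enhancers per line and those at borders of high input. Also named were some, not all, of those overlapping an enhancer of another line, and the 5 genes most like *MYC*. Others were named after their values were seen, among them every enhancer of high input. The members and lists were chosen with earlier results of these data known. Alternatives covered membership, the SE cutoff, subtraction of or division by input, length, the threshold of high input and the ratio. No sequence was printed.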

Additional observations from a re-analysis of the deposited data

How the results depend on the processing

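Of 69 values recomputed under alternatives, 43 stayed within 1.5 times the reported value, 23 moved further and 3 changed direction. Only 9 of them, the folds over UW228, have a direction, and the 3 that changed were added after seeing the data: with each difference divided by its relative input density, the sum was 0.440-fold that of UW228 in MB002, 0.189-fold in D425 and 0.131-fold in HD-MB03. The number of enhancers in the window and the number of high input were the same under every alternative tried for them, namely membership wholly inside the window, thresholds of 3 and 10, and the median of chromosome 8 outside the window as reference.

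With each difference divided by the relative input density of its enhancer, MB002 had 1 SE in the window, D425 0 and HD-MB03 0, the best rank was 705, 2657 and 1783, and the enhancer at or nearest to the *MYC* start site ranked 1226, 5948 and 15156. In UW228 these values were 3, 401 and 848, against reported values of 2, 430 and 763, and its second *PVT1* SE went from rank 659 to 1412. The high divisors of the G3-MB enhancers come from the way they were picked, so these shifts are built in. Without subtraction of input, SEs numbered 8 in D425 and 4 in HD-MB03, the HD-MB03 sum was 6.91-fold above UW228, and the HD-MB03 enhancer near *MYC* ranked 1278. Ranked per bp, the best rank was 1 in MB002, 4 in HD-MB03 and 1267 in UW228, and the enhancer near *MYC* ranked 3 for D425, 9 for HD-MB03 and 3574 for UW228. Divided by covered length, the sum was 16.3-fold above UW228 in D425 and 5.05-fold in HD-MB03. With the 500 top-ranked enhancers as SEs, UW228 had 1. As sum over sum, the ratio in HD-MB03 was 1.36. The recomputations rescale the same values, and no cause was tested.

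H3K27Ac and input were compared within each line, and with 1 library of each kind per line there are no replicates and no test was made. Read depth is unknown, so short enhancers with little input, such as that of the highest ratio in HD-MB03, have ratios of unknown precision. Differences between lines cannot be told apart from differences between single libraries. Enhancers were called in each line separately, so a missing enhancer does not show a lack of signal, and borders are known only to the nearest enhancer.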
